A study of Mus musculus with 16 samples.

Results

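The genes described here are the 4 adult hemoglobin genes of the mouse, Hba-a1, Hba-a2, Hbb-bs and Hbb-bt, together with Alas2, the erythroid enzyme of heme synthesis. They were chosen by symbol, as 5 of the 46078 genes in the count table, and all 5 passed the filter on low counts (at least 1 CPM, the count scaled to the library total, in at least 3 of the 4 replicates of a group), which 14897 genes passed. RNA was sequenced from engineered juxtaglomerular (JG) cells, a mouse culture that carries YFP driven by the renin promoter, 48 h after transfection with miR-106b or with a control precursor that matches no mammalian miRNA. For each transfection, 4 replicate cultures gave polyadenylated RNA (polyA) and another 4 gave RNA bound to immunoprecipitated Ago2 (Ago2-IP), for 16 libraries in 4 groups named by RNA kind and transfection. Cultures for polyA RNA were lysed in place and those for Ago2-IP were detached first, so the kind of RNA and the harvest cannot be told apart. All groups share the engineered line, transfection and the time point, and no untransfected culture was analysed here. The comparisons describe how the level of these mRNAs and their recovery with Ago2 differed between the groups.

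Hemoglobin is a tetramer of alpha and beta chains that carries oxygen by heme, and red cell precursors make the chains in very large amounts while other cells make few or none. The mouse alpha genes Hba-a1 and Hba-a2 lie in 1 cluster and the beta genes Hbb-bs and Hbb-bt in another. Within each pair the coding sequences are nearly the same. Alas2 catalyses the first step of heme synthesis in erythroid cells, and its relative Alas1 does so in other tissues. JG cells are kidney cells of the mural lineage that are known for making renin, not for making hemoglobin. miR-106b-5p guides Ago2, the core protein of the RNA-induced silencing complex, to mRNAs that pair with its seed.

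The sequence of the transfected miRNA and the stretches in which the hemoglobin genes differ are shown because the reading of the counts depends on both. The mature miR-106b-5p of RefSeq (GRCm38.p6, chr5:138165787-138165807, minus strand) has its seed, bases 2 to 8, in capitals:
miR-106b-5p: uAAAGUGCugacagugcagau
The DNA letters opposite this seed, GCACTTT, and the overlapping form CACTTTA were searched on the sense strand of 1 annotated transcript for each gene (GENCODE release M21 on GRCm38). Neither was present in the transcripts of Hba-a1, Hba-a2, Hbb-bs or Hbb-bt, and Alas2 held GCACTTT 1 time, outside its 3′UTR. Of 4516 coding transcripts between 554 and 703 bases, the lengths of the hemoglobin transcripts, 4.89% held at least 1 of the forms. Of 4685 coding transcripts within 10 percent of the length of Alas2, 18.1% did.

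Hba-a1 (ENSMUSG00000069919, chr11:32283511-32284465 on GRCm38) and Hba-a2 (ENSMUSG00000069917, chr11:32296489-32297298) share 428 of 429 coding bases. Hbb-bs (ENSMUSG00000052305, chr7:103826534-103828096) and Hbb-bt (ENSMUSG00000073940, chr7:103812524-103813996), on the minus strand, share 443 of 444. An alpha and a beta gene are much further apart, at 55.4% identity between Hba-a1 and Hbb-bs. Alas2 (ENSMUSG00000025270, chrX:150547375-150570638) has no near copy. The following exonic coding stretches hold the single difference of each pair, in capitals, C381T from Hba-a1 to Hba-a2 and C417T from Hbb-bs to Hbb-bt, counted from 1 at the first base of the start codon:
Hba-a1 (chr11:32284328-32284357, plus strand): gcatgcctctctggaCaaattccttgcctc
Hba-a2 (chr11:32297145-32297174, plus strand): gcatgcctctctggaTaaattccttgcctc
Hbb-bs (chr7:103826678-103826707, minus strand): ggtggctggagtggcCgctgccctggctca
Hbb-bt (chr7:103812669-103812698, minus strand): ggtggctggagtggcTgctgccctggctca
Reads were 50 bases long, and a read that lies wholly in the shared sequence could come from either gene of a pair. Of the 50-base windows of the transcript, 32.5% (211 of 650) were found in no other gene for Hba-a1 and 13.1% (66 of 505) for Hba-a2. The share was 34.2% (198 of 579) for Hbb-bs and 41.7% (273 of 654) for Hbb-bt. In Alas2, 86.2% of the windows (1713 of 1988) were its own, and the rest were shared with Apex2 and Mir3620, which overlap it. The handling of reads that fit several places is not given in the sources used here and the libraries do not keep strand, so the split of counts within a pair is uncertain. The sum over a pair does not depend on that split, though reads that fit both genes may have been left out of it.

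The proximal promoters were compared because the 4 hemoglobin genes moved together. In windows of 300 bases around the RefSeq start, each hemoglobin gene held 4 classical elements of globin promoters, searched on both strands and found without overlap. They were ATATAA for the TATA box (in 9.82% of 32851 promoter windows), CCAAT for the CAAT box (37.4%), CACCC for the CACC box (57.5%) and GATAA for the GATA motif (25.4%). All 4 together were found in 0.709% of the windows. The Alas2 window held CACCC and also GATAA but not the others. The elements were chosen because globin promoters are known for them, so finding them was no test. A match describes the letters only. The stretches around ATATAA, in capitals, are identical in the alpha pair and differ in the beta pair:
Hba-a1 (chr11:32283632-32283661, plus strand): cccttggagggcATATAAgtgctacttgct
Hba-a2 (chr11:32296449-32296478, plus strand): cccttggagggcATATAAgtgctacttgct
Hbb-bs (chr7:103827941-103827970, minus strand): ccagggcagagcATATAAggtgaggtagga
Hbb-bt (chr7:103813935-103813964, minus strand): ccagcattgggtATATAAagctgagcaggg

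Between 2579086 and 9459585 counts per library fell on genes, with the deepest libraries in polyA control. All pairs of replicates differed by more than sampling noise, and polyA miR-106b replicate 1 stood furthest from its group (chi-square per degree of freedom 18.1 to 27.1 against its replicates, where the other pairs of that group reached 11.9). For the hemoglobin genes, tests that use polyA miR-106b are therefore also given without it or over all fits without 1 library. Marker lists are given only with it. The labelled cell type was checked against its markers, and its renin cell genes were at or near 0. Ren1, the renin gene, had 0 counts throughout, so its level was at most 0.0425 CPM over the 16 libraries together. Acta2, the smooth muscle actin of mural cells, was present at a mean of 757 CPM in polyA control and 254 CPM in Ago2-IP control. Akr1b7, another gene of renin cells, had 6 counts in all libraries. Markers of heart muscle, endothelium and leukocytes were present in all libraries, with Myh6, a myosin of the heart, at group means of 10019 to 39469 CPM. Which cells the hemoglobin RNA came from was not tested. Intervals and limits from counts cover counting error only, since reads that carry no molecular identifier may be copies of 1 molecule.

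The 4 hemoglobin mRNAs were detected in all 16 libraries. Their summed counts lay between 235 and 604 per library, and together they made up 36.3 ± 7.09 CPM of polyA RNA in control cells against 88.6 ± 22.4 CPM after miR-106b (SD, n = 4 each). With Ago2 it was 139 ± 6.12 CPM in control cells against 136 ± 12.8 CPM after miR-106b. The order of the groups was the same for each hemoglobin gene, except that the 2 Ago2-IP groups overlapped and changed places between genes. Alas2 was low, with 4 to 21 counts per library. In bulk RNA, fewer cells of a type and less RNA per cell cannot be told apart.

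**Figure D1:**
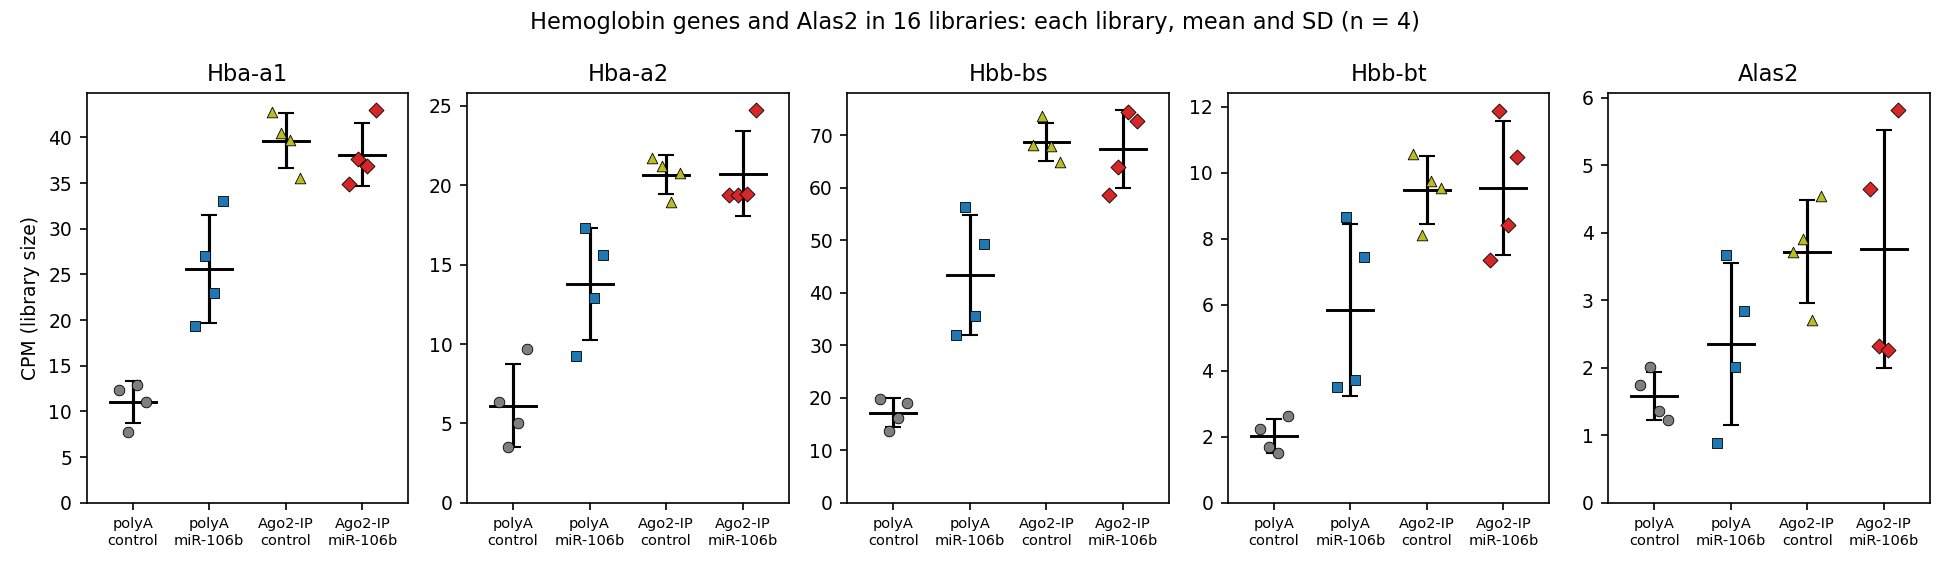
Level of each gene in CPM scaled to library size (vertical axis, from 0, separate scale per gene) in the 4 groups; points are single libraries, horizontal lines the mean and bars the SD (n = 4). Hbb-bs rises from 13.6 to 19.7 CPM in polyA control to 32.1 to 56.4 CPM in polyA miR-106b and 58.5 to 74.4 CPM in Ago2-IP RNA, and Alas2 stays under 6 CPM in every library.

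Per kilobase of transcript, Hbb-bs was the most abundant member in every group. It reached 27.3 ± 4.40 CPM per kilobase in polyA control and 109 ± 5.81 in Ago2-IP control (SD, n = 4). Hba-a1 followed at 15.8 ± 3.33 and 56.7 ± 4.36 CPM per kilobase, and Hba-a2 at 11.1 ± 4.75 and 37.3 ± 2.19. In polyA control the means of Hba-a1 and Hba-a2 differed by less than the SD of Hba-a2, whereas in Ago2-IP control they lay several SDs apart. Hbb-bt, the minor beta gene in these counts, had 2.87 ± 0.726 and 13.5 ± 1.46 CPM per kilobase, and Alas2 0.779 ± 0.175 and 1.83 ± 0.375. The order of the upper ranks depends on the length used. Per 1000 windows found in no other gene, Hba-a2 lay above Hbb-bs in polyA control, at 92.8 against 86.5 CPM. On this scale Hba-a2 had a mean of 232 CPM over all libraries and Hba-a1 136, while Hbb-bs had 248 and Hbb-bt 24.6.

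The composition of the hemoglobin counts varied little. Hba-a1 made up 65.1% of the alpha counts over all libraries (1751 of 2689, exact 95% binomial interval 63.3% to 66.9%). The share was 65.0% (control) and 64.9% (miR-106b) in polyA RNA, and 65.6% (control) and 64.8% (miR-106b) in Ago2-IP RNA. Single libraries lay between 53.4% and 72.0%, and both ends of that range were polyA control libraries. Replicate 4 of polyA control, at 53.4% (63 of 118 counts, interval 44.0% to 62.6%), was the only library whose interval did not reach 65.1%.

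Hbb-bs made up 88.1% of the beta counts (2998 of 3404, interval 86.9% to 89.1%). By group the share was 89.5%, 88.3%, 87.8% and 87.5% in the same order, with single libraries between 84.4% and 91.5%. The alpha pair made up 44.1% of the hemoglobin counts (2689 of 6093, interval 42.9% to 45.4%). It was 46.8% in polyA control (interval 43.6% to 49.97%) and 43.3% in Ago2-IP miR-106b (interval 40.9% to 45.7%), so the group intervals overlapped. Alas2 was 4.47% of the counts of all 5 genes in polyA control (46 of 1029, interval 3.29% to 5.92%) and 2.54%, 2.66% and 2.66% in the other groups. That polyA control share rests in part on replicate 2, at 7.04%, while its other replicates lay between 2.82% and 4.12%.

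**Figure D2:**
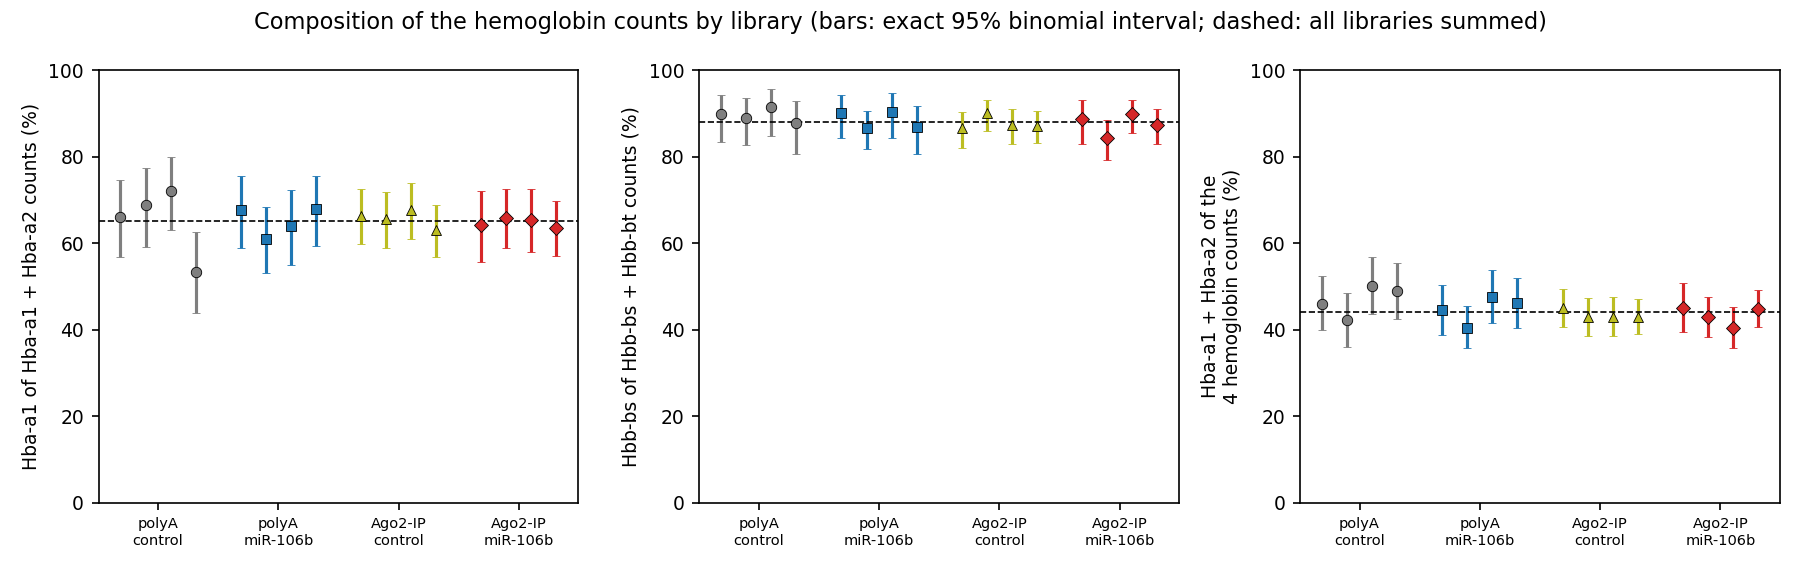
Share in percent (vertical axis, 0 to 100) of Hba-a1 in the alpha counts, of Hbb-bs in the beta counts and of the alpha pair in the 4 hemoglobin counts; each point is 1 of 16 libraries, bars are exact 95% binomial intervals and the dashed line is the share over all libraries (65.1%, 88.1% and 44.1%). The shares stay near these lines in all 4 groups while the hemoglobin level differs between them.

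In polyA RNA, the hemoglobin mRNAs rose with miR-106b by 2.32- to 2.94-fold, and Alas2 did not pass the test. edgeR's quasi-likelihood test, with p-values adjusted over all 14897 genes by Benjamini and Hochberg's false discovery rate (FDR), called 4 of the 5 genes higher at a threshold of 0.05. The background is wide, since 19.0% of all genes tested were higher and 40.5% were called in either direction. Its balance depends on the scaling, with 2836 genes higher and 3198 lower by TMM, 3163 and 2642 by DESeq2's size factors, and 3828 and 2410 with all 16 libraries in 1 fit. The balance also turned without polyA control replicate 1, 2 or 3, or without polyA miR-106b replicate 1. It was 2487 higher and 1636 lower without polyA control replicate 2. Leaving out any other single library did not turn it. On CPM, the libraries of the groups did not overlap for 3 of the 5 genes (Hba-a1, Hbb-bs and Hbb-bt), all higher with miR-106b, against 16.5% of genes tested.

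Hba-a1 was at 12.4, 7.72, 12.9 and 11.1 CPM in polyA control replicates 1 to 4 and at 19.3, 27.0, 23.0 and 33.0 CPM with miR-106b. Every miR-106b library lay above every control library, with the lowest of them in replicate 1. The log2 fold change was 1.24 (SE 0.212, edgeR adjusted p = 0.00091). The exact permutation test over the libraries gave a two-sided p of 0.0286, the smallest that 4 against 4 libraries allow.

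Hba-a2 was at 6.35, 3.49, 5.0 and 9.66 CPM in polyA control and at 9.22, 17.3, 12.9 and 15.6 CPM with miR-106b. The groups overlapped at 1 point, where control replicate 4 was above miR-106b replicate 1. The log2 fold change was 1.21 (SE 0.302, edgeR adjusted p = 0.0069), with an exact permutation p of 0.0571 (two-sided). With the alpha genes summed to 1 feature, the log2 fold change was 1.23 (SE 0.214, edgeR adjusted p = 0.000979).

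Hbb-bs was at 19.7, 13.6, 16.2 and 19.0 CPM in polyA control and at 32.1, 56.4, 35.6 and 49.4 CPM with miR-106b. The groups were well apart, and the spread was wider among the miR-106b libraries (SD 11.5 CPM against 2.76 CPM). Its log2 fold change was 1.37, with the smallest SE of the 5 genes (0.200, edgeR adjusted p = 0.000682). The exact permutation p was 0.0286 (two-sided).

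Hbb-bt was at 2.22, 1.69, 1.52 and 2.63 CPM in polyA control, from 10 to 16 counts per library, and at 3.51, 8.66, 3.73 and 7.46 CPM with miR-106b. The miR-106b libraries fell into a lower pair, replicates 1 and 3, and a higher pair, replicates 2 and 4, all above control. The log2 fold change was 1.55 (SE 0.367, edgeR adjusted p = 0.00512, exact permutation p 0.0286, two-sided). With the beta genes summed, it was 1.39 (SE 0.207, edgeR adjusted p = 0.000684).

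Alas2 was at 1.75, 2.01, 1.36 and 1.23 CPM in polyA control and at 0.878, 3.67, 2.01 and 2.84 CPM with miR-106b. The groups overlapped, and the lowest library of all, miR-106b replicate 1, rested on 4 counts. The log2 fold change was 0.52 (SE 0.428, edgeR adjusted p = 0.355, exact permutation p 0.343, two-sided). A change of the size seen in the hemoglobin genes lies within 3 SEs of this value, so at this depth Alas2 can be told neither from no change nor from theirs.

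Without polyA miR-106b replicate 1, the library that stood apart, the log2 fold changes were larger: 1.44 for Hba-a1, 1.47 for Hba-a2, 1.58 for Hbb-bs, 1.84 for Hbb-bt and 0.91 for Alas2. The edgeR adjusted p of Alas2 was then 0.0651, and the other 4 genes were still called. Without polyA miR-106b replicate 2, Alas2 moved the other way, to 0.17 (edgeR adjusted p = 0.804). Replicate 1 was lowest with miR-106b for each of the 5 genes.

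In Ago2-IP RNA, no member was called between miR-106b and control (0 of 5, against 0.00% of all genes tested). In all, edgeR's quasi-likelihood test called 0 of 14897 genes, while 827 (5.55%) fell under 0.05 without adjustment. DESeq2's Wald test called 2 genes and edgeR's likelihood ratio test 18, none of them a member. The hemoglobin values were tighter here than in polyA RNA, with a coefficient of variation of the summed level of 4.42% in Ago2-IP control against 19.6% in polyA control.

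Hba-a1 was at 42.8, 40.5, 39.8 and 35.5 CPM in Ago2-IP control and at 34.9, 37.7, 36.9 and 43.0 CPM with miR-106b. Hba-a2 was at 21.7, 21.2, 18.9 and 20.8 CPM in control and at 19.4, 19.4, 19.4 and 24.7 CPM with miR-106b. In both genes the groups overlapped and miR-106b replicate 4 was the highest library. Hbb-bs was at 68.2, 73.7, 67.9 and 65.0 CPM in control and at 58.5, 64.1, 74.4 and 72.7 CPM with miR-106b. Hbb-bt was at 10.6, 8.10, 9.74 and 9.53 CPM in control and at 7.37, 11.9, 8.42 and 10.5 CPM with miR-106b. Here too the miR-106b libraries spread to both sides of the control libraries.

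Alas2 was at 3.71, 3.91, 2.70 and 4.55 CPM in Ago2-IP control and at 4.65, 2.32, 2.27 and 5.82 CPM with miR-106b. Its miR-106b libraries were both the lowest and the highest of the Ago2-IP libraries. The log2 fold changes with miR-106b were -0.048 for Hba-a1 (SE 0.110), 0.011 for Hba-a2 (SE 0.148), -0.022 for Hbb-bs (SE 0.0870), 0.024 for Hbb-bt (SE 0.222) and 0.0041 for Alas2 (SE 0.382). Each was smaller than its SE.

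Against polyA RNA, Ago2-IP RNA held more of each member in control cells. All 5 genes were higher (35.4% of all genes tested were), and the libraries did not overlap for any of them (26.1% of genes tested were higher without overlap). The log2 ratio of Ago2-IP to polyA RNA, with TMM scaling over the libraries compared, was 2.15 for Hba-a1 (SE 0.145), 2.09 for Hba-a2 (SE 0.216), 2.31 for Hbb-bs (SE 0.113), 2.53 for Hbb-bt (SE 0.250) and 1.48 for Alas2 (SE 0.333). The edgeR adjusted p was 0.000358 for Alas2 and at most 8.9e-09 for the hemoglobin genes. The size of the ratio depends on the scaling, since TMM put the median gene at -0.06 and library size alone put it at -0.35. With library size alone, the ratio was 2.02 for Hbb-bs and 1.20 for Alas2, and 37.6% of the genes called were higher, where TMM gave 48.3%.

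In miR-106b cells the ratios were smaller. Ago2-IP RNA was higher for 4 of the 5 genes (18.6% of all genes tested), with log2 ratios of 0.74 for Hba-a1 (SE 0.175, edgeR adjusted p = 0.00377), 0.75 for Hba-a2 (SE 0.213, edgeR adjusted p = 0.0115), 0.79 for Hbb-bs (SE 0.177, edgeR adjusted p = 0.00268) and 0.88 for Hbb-bt (SE 0.323, edgeR adjusted p = 0.0417). Alas2 had a log2 ratio of 0.84 (SE 0.485, edgeR adjusted p = 0.181). The libraries did not overlap for Hba-a1, Hba-a2 and Hbb-bs, 3 of 5 genes, against 13.9% of genes tested. For Hbb-bt, polyA replicate 2 lay above Ago2-IP replicates 1 and 3, and its call was lost without polyA miR-106b replicate 1 (log2 ratio 0.69, edgeR adjusted p = 0.0974), with library size alone (0.73, edgeR adjusted p = 0.0781) and in 4 other fits without 1 library. Without polyA replicate 1 the other hemoglobin ratios were 0.63 for Hba-a1, 0.60 for Hba-a2 and 0.67 for Hbb-bs, with an adjusted p of at most 0.0248. With library size alone, 34.0% of the genes called were higher, where TMM gave 48.5%.

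The ratio itself fell with miR-106b for the 4 hemoglobin genes, tested as an interaction term in a fit of all 16 libraries (lower for 19.7% of all genes tested). It fell by 1.44 on the log2 scale for Hba-a1 (SE 0.236, edgeR adjusted p = 7.32e-05), by 1.35 for Hba-a2 (SE 0.327, edgeR adjusted p = 0.00307), by 1.54 for Hbb-bs (SE 0.222, edgeR adjusted p = 2.78e-05) and by 1.67 for Hbb-bt (SE 0.410, edgeR adjusted p = 0.00339). Over the fits without 1 library, the differences lay between -1.55 and -1.28 for Hba-a1 and between -1.64 and -1.11 for Hba-a2. Those of Hbb-bs lay between -1.66 and -1.28 and those of Hbb-bt between -1.87 and -1.29. The edgeR adjusted p was at most 0.0225 in these fits. For Alas2 the difference was -0.66 (SE 0.576, edgeR adjusted p = 0.430), and it lay between -0.99 and -0.22 in the fits without 1 library. This comparison uses the same libraries as the others, and the hemoglobin level differed between the polyA groups and not detectably between the Ago2-IP groups. Among the genes called, 27.9% had a higher ratio with TMM and 46.3% with library size alone, and the 4 calls were made under both.

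**Figure D3:**
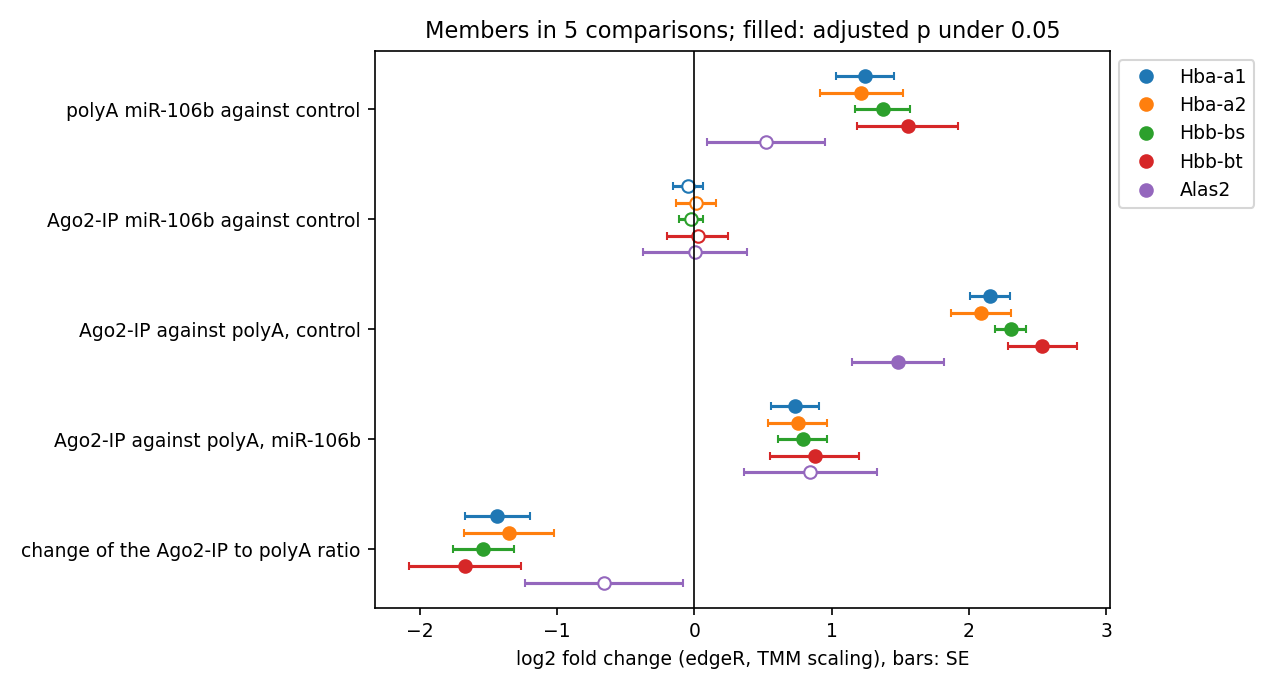
Log2 fold change (horizontal axis) of the 5 genes in the 5 comparisons (rows), with bars of 1 SE; filled points passed edgeR's test (FDR threshold 0.05). The hemoglobin genes lie between 1.21 and 1.55 in polyA RNA, within 0.05 of 0 in Ago2-IP RNA, and Alas2 is filled only for Ago2-IP against polyA RNA in control cells.

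The other globins fell into an absent group and a present group. The embryonic and minor globin genes Hbb-bh1, Hbb-bh2, Hbb-bh0, Hba-x, Hbq1a and Hbq1b had 0 counts in all 16 libraries, and the embryonic Hbb-y had 2 counts in all. The limit that 0 counts allow is 0.317 CPM in the deepest library and 1.16 CPM in the shallowest. Ngb, the globin of neurons, had 13 counts. Mb, the oxygen store of heart and skeletal muscle, was far more abundant than any hemoglobin mRNA, rising from 3339 ± 515 to 7714 ± 1908 CPM in polyA RNA (SD, n = 4, log2 fold change 1.24, SE 0.205, edgeR adjusted p = 0.000796). With Ago2 it was at 13161 ± 389 CPM in control cells and 12851 ± 550.1 CPM after miR-106b. Cygb, a globin of fibroblast-like cells, rose from 53.0 ± 8.85 to 114 ± 18.8 CPM in polyA RNA (log2 fold change 1.13, SE 0.156, edgeR adjusted p = 0.000682). Both globins that passed the filter thus had a log2 fold change near that of the hemoglobin genes.

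Heme synthesis runs from Alas1 or Alas2 to Fech, and all 8 further enzymes of the list passed the filter. In polyA RNA 4 of the 8 were higher and 0 were lower (19.0% and 21.5% of all genes tested were), with a median log2 fold change of 0.35, where the median of all genes tested was -0.05. Alas1, the form of other tissues, rose from 105 ± 12.6 to 191 ± 40.2 CPM (SD, n = 4, log2 fold change 0.89, SE 0.157, edgeR adjusted p = 0.00105). Alas1 counts were 14238 over all libraries, against 184 for Alas2. Uros rose by 0.65, Cpox by 0.52 and Urod by 0.47. The values were 0.24 for Fech, which inserts the iron, 0.17 for Alad and -0.065 for Ppox, none of which passed. Apart from Alas1, the enzymes called act at consecutive steps (Uros, Urod, Cpox), and none of the 8 reached the log2 fold change of a hemoglobin gene.

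Of the 10 listed transcription factors of red cell development in the table, 5 were scarce and did not pass the filter. Of the 5 that passed, 2 were higher and 0 lower in polyA RNA, where 19.0% of all genes tested were higher and 21.5% lower (median log2 fold change 0.58). Gata1, the leading erythroid factor, had 12 counts in all 16 libraries together, Klf1, which acts on the beta globin promoter, had 7, Gfi1b 18, Myb 10 and Nfe2 58. Lmo2, a partner of Tal1 that endothelium also expresses, was higher by 0.91 (SE 0.193, edgeR adjusted p = 0.00277), from 7.69 ± 0.827 to 14.3 ± 2.67 CPM. Bcl11a was higher by 1.13 (SE 0.328, edgeR adjusted p = 0.0152), from 1.98 ± 0.633 to 4.40 ± 1.22 CPM. The broadly expressed Ldb1 and Zbtb7a, at 289.5 ± 14.8 and 283.5 ± 8.73 CPM in polyA control, had log2 fold changes of -0.0010 and -0.15. They and Tal1, at 0.58, did not pass.

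Genes of the red cell membrane and of late erythroid cells were mixed. Of 32 listed genes, 28 were in the table and 16 passed the filter, of which 5 were higher and 1 lower in polyA RNA, against 19.0% and 21.5% of all genes tested (median log2 fold change 0.31). Defining red cell genes were nearly absent: Slc4a1, the anion exchanger of the membrane, had 33 counts in all libraries, Rhag 22 and Kel 4, and Car1, a carbonic anhydrase of the cytosol, had 0. The members that rose were Art4 (1.74), the spectrin Sptb (1.20), the ankyrin Ank1 (1.10), Ube2l6 (0.57) and Tmcc2 (0.39), and Xpo7 fell by 0.39. Sptb and Ank1, whose products are also part of the muscle membrane skeleton, were at 106 ± 17.8 and 91.1 ± 12.3 CPM in polyA control (SD, n = 4).

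**Figure D4:**
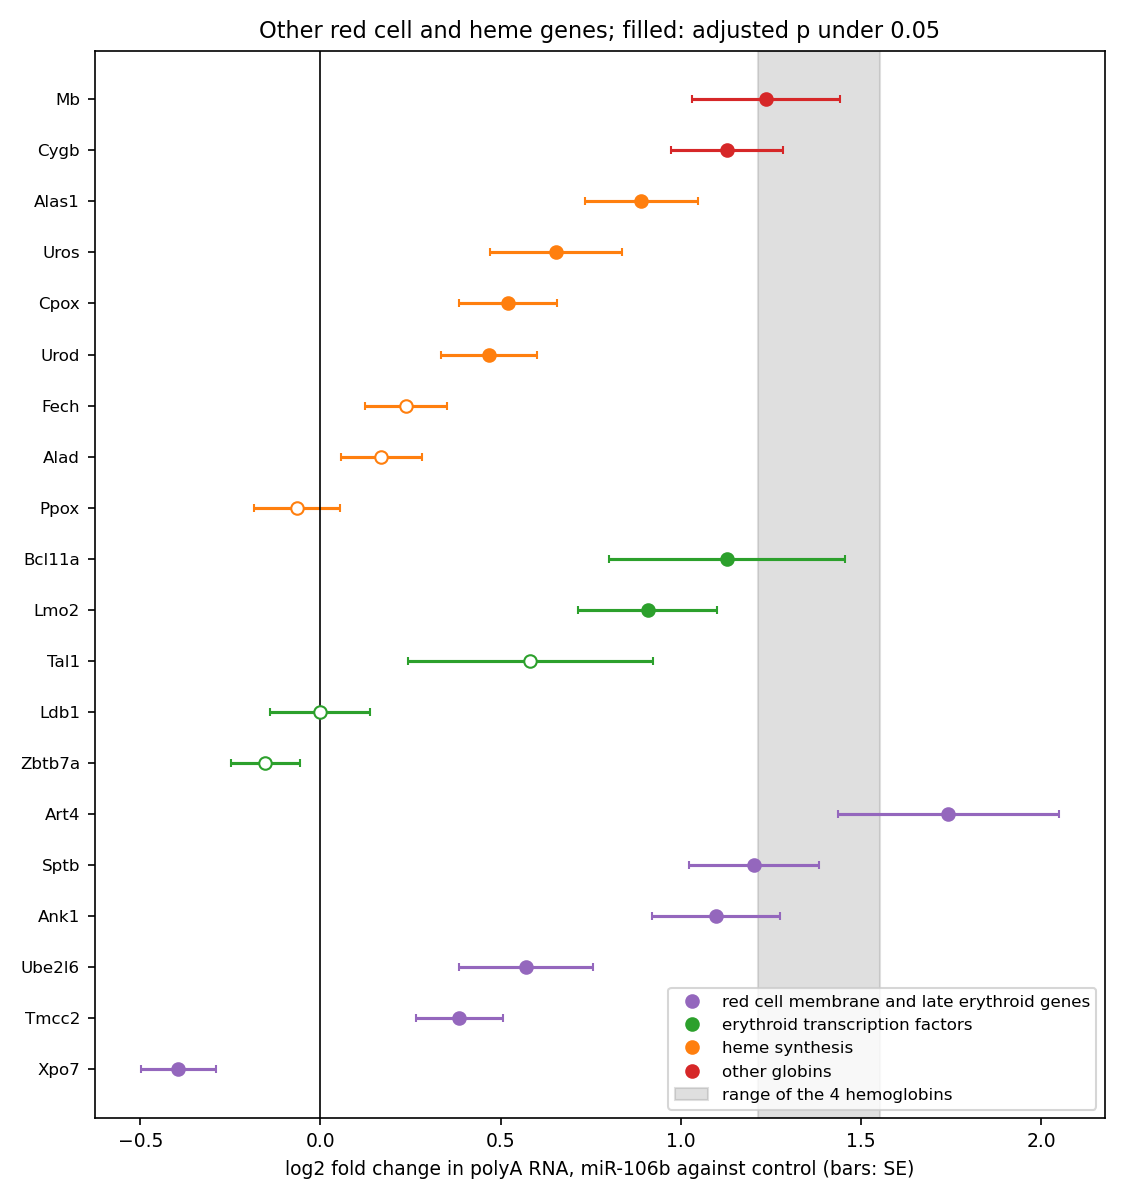
Log2 fold change in polyA RNA, miR-106b against control (horizontal axis, bars 1 SE), of the listed globins, heme enzymes and transcription factors that are named in the text and passed the filter, and of the 6 red cell membrane and late erythroid genes that were called; filled points passed edgeR's test (FDR threshold 0.05) and the grey band is the range of the 4 hemoglobin genes (1.21 to 1.55). Mb lies inside the band and Art4 above it, and the heme enzymes lie below it.

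Markers of other cell types were measured beside the hemoglobins. Of 15 cardiac muscle markers, 14 passed the filter, and all 14 were higher in polyA RNA with miR-106b (median log2 fold change 1.23), where 19.0% of all genes tested were higher and 21.5% lower. The same shares apply to the counts of the lists that follow. Their summed level was 19823 to 28238 CPM (control) and 38664 to 66969 CPM (miR-106b) in polyA RNA, and 89704 to 95633 CPM (control) and 87189 to 95839 CPM (miR-106b) in Ago2-IP RNA. Myh6, the alpha myosin heavy chain of the heart, alone was at a mean of 10019, 23166, 39469 and 38535 CPM in the groups taken in this order, and Tnnt2, cardiac troponin T, at 2143, 4893, 8464 and 8263. None of the 15 was at 0, and the atrial Myl7 had 36 counts in all.

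All 10 endothelial markers were higher in polyA RNA (median 1.18), with a summed level of 337 to 495, 640 to 1158, 1542 to 1603 and 1447 to 1577 CPM in the same order of groups. Pecam1 was at 47.2, 98.9, 152 and 157 CPM and Cdh5 at 113, 269, 440 and 434. Of 10 leukocyte markers, 7 passed and all 7 were higher (median 1.20), with sums of 126 to 184, 262 to 414, 580 to 609 and 563 to 616 CPM. Ptprc was at 3.50, 7.90, 14.7 and 13.2 CPM and Csf1r, the receptor of macrophage growth factor, at 45.3, 104, 181 and 183. The lists of cardiac, endothelial and leukocyte markers thus moved in the same direction as the hemoglobins. Their part in the hemoglobin result was not tested.

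Relative to the Ago2-IP control mean, the 4 hemoglobins were at 26.2% in polyA control and 63.9% in polyA miR-106b. The cardiac list was at 25.4% and 58.6%, the endothelial list at 26.1% and 59.5% and the leukocyte list at 26.3% and 59.0%. Per 1000 cardiac counts there were 1.34 to 1.67 (control) and 1.55 to 1.66 (miR-106b) hemoglobin counts in polyA RNA, and 1.46 to 1.51 (control) and 1.34 to 1.57 (miR-106b) in Ago2-IP RNA. The ranges of polyA miR-106b and Ago2-IP control did not overlap, and all other pairs of ranges did. In polyA miR-106b replicate 1, the lowest library of its group for both sums, the value was 1.66.

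The summed platelet markers did not share this pattern. Of 10 listed, 5 passed, with 1 higher and 1 lower in polyA RNA, and Gp6 had 0 counts. Their summed level was 47.9 to 64.1, 44.6 to 60.0, 40.8 to 53.1 and 40.7 to 50.3 CPM in the order above. Within the list, Pf4 was at 8.24, 20.4, 28.0 and 27.8 CPM by group and Ppbp at 5.62, 5.14, 1.07 and 0.307.

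Of the 10 juxtaglomerular and mural markers, 5 of 8 tested were higher in polyA RNA (median 0.95), with sums of 966 to 1096, 918 to 1356, 851 to 865 and 796 to 896 CPM. Among the 10 kidney tubule markers, 3 passed and 1 was lower, with Kap at 0 counts, and their sum was 304 to 475 CPM in polyA control and 203 to 456 CPM in polyA miR-106b but 3.14 to 21.7 CPM in Ago2-IP control and 5.23 to 32.5 CPM in Ago2-IP miR-106b. Of the 10 fibroblast markers, 9 were higher (median 1.21), and their sum was 11220 to 13195 CPM (control) and 14877 to 27499 CPM (miR-106b) in polyA RNA and 18716 to 19321 CPM (control) and 18483 to 18984 CPM (miR-106b) in Ago2-IP RNA. Replicate 1 of polyA miR-106b was the highest library of the fibroblast sum and the lowest of its group for the hemoglobins. Col1a1 was the largest single part of the fibroblast sum, at a mean of 7506, 10818, 8557 and 8432 CPM in the order above. Col1a2 was at 774, 1780, 3069 and 2977 CPM. Each of the listed fibroblast genes had its lowest group mean in polyA control, as the hemoglobins did. Acta2 was the largest single part of the mural sum in polyA RNA, at a mean of 757, 590.1, 254 and 252 CPM in the order above. The other mural genes differed among themselves. Rgs5, a pericyte gene, was at 38.5, 85.7, 147 and 154 CPM and Cspg4, another, at 31.9, 79.6, 125 and 120, and Myh11, Pdgfrb and Kcnj8 were also lowest in polyA control, as the hemoglobins were. Tbx18 and Foxd1 were higher in both polyA groups than in the Ago2-IP groups.

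**Figure D5:**
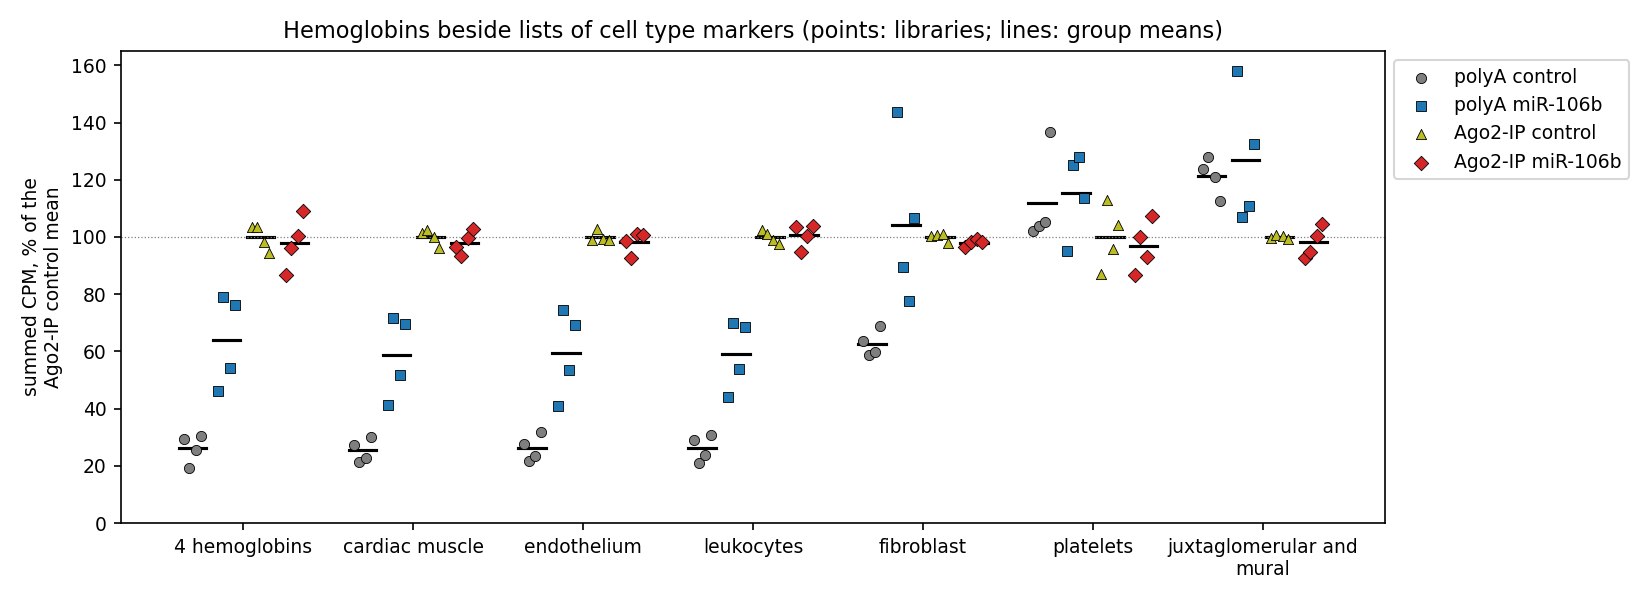
Summed CPM of the 4 hemoglobins and of 6 marker lists in percent of the Ago2-IP control mean (vertical axis); points are single libraries and short lines group means. Hemoglobins, cardiac, endothelial and leukocyte markers sit at 25.4% to 26.3% in polyA control and 58.6% to 63.9% in polyA miR-106b, whereas the platelet sum sits at 112% and the mural sum, most of it Acta2, at 121% in polyA control; kidney tubule markers, at a mean of 3963% in polyA control, are not drawn.

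The genes whose levels followed the summed hemoglobin and Alas2 counts most closely were sought among 10892 other genes whose mean reached 5 CPM. The measure was the root-mean-square difference of centred log2 CPM over the 16 libraries, with a median of 1.0 over the genes compared. The closest were Trim54 (0.0658), a ubiquitin ligase of striated muscle, Pgam2 (0.0695), the muscle phosphoglycerate mutase, and Myh14 (0.0707), a nonmuscle myosin heavy chain. Next came Adck3 (0.0710), which acts in coenzyme Q synthesis, and Lama5 (0.0780), a laminin chain. Trim54, for example, was at 60.7 ± 10.7 (control) and 140 ± 35.6 CPM (miR-106b) in polyA RNA and 233 ± 10.8 (control) and 230.4 ± 13.4 CPM (miR-106b) in Ago2-IP RNA (SD, n = 4). Libraries of a group share their treatment and RNA kind, so this likeness is a description.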

How the data were processed

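Libraries were non-strand-specific and single-end. The authors removed ribosomal reads, aligned the rest to GRCm38 with Tophat2 (version 2.0.10 per the labels) and counted reads per gene with HTSeq, and the deposited counts are whole numbers with no normalization. Rows with no symbol (197, 0.618% of counts) kept their gene ID. Groups followed the sample titles. The main tests used edgeR 4.0.16 under R 4.3.3 (TMM, robust quasi-likelihood F test, two-sided, Benjamini-Hochberg over 14897 genes, threshold 0.05, prior count 0.125), with the 8 libraries of a comparison in each fit and 16 for the change of the ratio. CPM are scaled to library size, log2 CPM with a prior count of 2. Single genes were compared by exact permutation over 70 relabellings in Python 3.11.15 (scipy 1.17.1, numpy 2.4.6, pandas 2.3.3). DESeq2 1.42.0 and the other alternatives appear in the closing section. Scripts were tested on simulated data. The members, gene lists and alternatives were chosen with earlier results of these data known. Genes were named by rule: all members; of the globin, heme and transcription factor lists, those that passed the filter; of the membrane and iron lists, at most 6 with an adjusted p under 0.05 and at least 5 CPM in polyA RNA; the first markers of each cell type; and the 5 most alike genes. Slc40a1, Tfrc and the mural genes beyond the first markers were named outside this rule, and the first kidney tubule markers were not named. The scarce genes and Myl7 were named after their values were seen. Of the listed genes, those outside the table were not analysed here, and a few are counted but not reported here by name.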

Additional observations from a re-analysis of the deposited data

Results flagged for a closer look

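Hba-a2 in Ago2-IP miR-106b had 1 library far from the others, replicate 4 at 24.7 CPM with the other 3 at 19.4 CPM. The gap was 0.994 of the range of the group. Of 20 groups of libraries examined, chance flags about 1 in 20, and without that library the log2 fold change between the Ago2-IP groups was -0.088, with no call.

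The difference between miR-106b and control was not the same in Ago2-IP and polyA RNA for the hemoglobin genes. The interaction in edgeR's quasi-likelihood test was -1.44 for Hba-a1, -1.35 for Hba-a2, -1.54 for Hbb-bs and -1.67 for Hbb-bt on the log2 scale. In the same libraries the summed cardiac markers differed between the polyA groups and overlapped between the Ago2-IP groups, and their part in this difference was not tested.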

How the results depend on the processing

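Of 480 values of the 5 genes under alternatives, 454 kept their direction and their side of the threshold, 6 lost the call and 20 changed sign. In polyA RNA, in Ago2-IP against polyA RNA of control cells and in the change of the ratio, every value kept both. All 6 lost calls were those of Hbb-bt in Ago2-IP against polyA RNA of miR-106b cells, at 0.73 with library size alone (adjusted p = 0.0781 in edgeR's test) and at 0.69 to 1.16 over the fits without 1 library, of which 5 lost the call (without polyA replicate 1 or 3, or Ago2-IP replicate 2, 3 or 4). All changes of sign were in Ago2-IP miR-106b against control, where no call was made. Hba-a2 was at -0.0036 with no filter on low counts, -0.0092 with all 16 libraries in 1 fit and -0.029 with copies summed. Hbb-bt was at -0.017 with copies summed. Alas2 was at -0.0096 with no filter, -0.038 in the likelihood ratio test and -0.012 with all 16 libraries. Without 1 library each, the values lay between -0.088 and 0.044 for Hba-a2, -0.069 and 0.037 for Hbb-bs, -0.10 and 0.12 for Hbb-bt, and -0.31 and 0.18 for Alas2. The cause of these changes was not tested.

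Among all genes, the count called in Ago2-IP RNA was 0, against 20 with no filter, 2 with at least 10 counts in every library, 2 by DESeq2, 18 by the likelihood ratio test, and up to 40 without 1 library (10 without control replicate 4, 4 without miR-106b replicate 1, 40 without miR-106b replicate 4). Alas2 was not tested with at least 10 counts in every library, as its counts fall below that. Leaving out rows with no symbol was added after seeing the data and changed no call.

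Replicate numbers did not pair the samples. Between groups that share RNA kind or transfection, 16 correlations of same-numbered libraries lay between -0.421 and 0.261. Of these 16, 1 was over 0.1, and in 3 the same number gave the highest correlation. Between groups that share neither, the highest was 0.1003, for replicate 2 of polyA miR-106b and Ago2-IP control. With a replicate block, 4 members were called in polyA RNA (Hbb-bs at 1.35), 0 in Ago2-IP RNA (Alas2 at -0.037, 1 gene in all), 5 and 4 in the 2 ratios and 4 in their change, the same numbers as without it. Depth limits Alas2 most, with 4 to 21 counts per library.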

Other observations

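Genes of iron and heme handling serve red cell precursors and most other cells. Of 20 listed, 18 were tested, and in polyA RNA 4 were higher and 2 lower with miR-106b, against 19.0% and 21.5% of all genes tested (median log2 fold change 0.07). Steap3, an iron reductase, was higher by 1.04 (SE 0.173, adjusted p = 0.000799 in edgeR's quasi-likelihood test), from 40.1 ± 5.85 to 80.7 ± 17.8 CPM (SD, n = 4). Hebp1, a heme-binding protein, was higher by 0.72 and Hmox2, the constitutive heme oxygenase, by 0.41. Slc40a1, the iron exporter, was higher by 1.21 at a mean under 5 CPM. Slc25a37, the mitochondrial iron importer that erythroid cells use, fell by 0.81 (SE 0.221, adjusted p = 0.0112 in the same test), from 42.1 ± 4.91 to 23.9 ± 9.64 CPM. Ftl1, the ferritin light chain, fell by 0.44, from 394 ± 13.9 to 286 ± 24.8 CPM. The transferrin receptor Tfrc, at -0.17, did not pass.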
